A study of Homo sapiens with 8 samples.

Results

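Aminoacyl-tRNA synthetases are the enzymes that join each amino acid to its transfer RNA before translation. The 35 human synthetase genes described here were chosen by symbol and matched by Ensembl gene identifier to the raw count table. They comprise 19 genes for cytosolic enzymes, WARS1 among them, and 16 genes for mitochondrial enzymes; the list does not hold every human synthetase gene. Reads were counted for 32 of the 35 genes, and all 32 were among the 15066 genes that passed the filter on low counts and were tested, of 60664 genes in the table. The other three, the mitochondrial AARS2, MARS2 and VARS2, were listed at 0 in all 8 libraries and were treated as not measured.

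The cells were A549, a human lung adenocarcinoma cell line, so each group is a single line in culture and holds no immune cells. Duplicate libraries were made from 4 groups. Untreated cells received neither agent, others received AX-0085 at 0.5 µM alone or IFN-γ alone, and the combinatorially treated group received IFN-γ for 24 h and then AX-0085 for another 24 h before harvest. The labels give 20 ng of IFN-γ with no volume. The times recorded were 24 h before and 24 h after the AX-0085 step in all 8 libraries. AX-0085 is a kinase inhibitor candidate that the study selected for blocking the IFN-γ activation of a PD-L1 reporter. The question for the synthetases was how their transcripts changed with IFN-γ, and what AX-0085 did to that change.

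Each enzyme class works in its own compartment. The cytosolic synthetases serve translation of nuclear-encoded messages, and several of them sit in a multisynthetase complex held together by scaffold proteins. The mitochondrial synthetases are encoded in the nucleus, imported, and serve translation of the few proteins encoded by mitochondrial DNA. GARS1 and KARS1 encode both a cytosolic and a mitochondrial form of their enzyme, so their counts cannot be divided between the compartments. Many cytosolic synthetase genes are known targets of the amino acid response, in which the transcription factor ATF4 raises genes of amino acid supply. WARS1, the cytosolic tryptophanyl-tRNA synthetase, is known in addition as an interferon-inducible gene.

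Library totals lay between 20672828 and 29978251 counts. The IFN-γ label was checked with GBP1, an interferon-induced GTPase, which had 4 and 2 counts in the untreated libraries and 6377 and 8034 counts in the IFN-γ libraries. All 5 epithelial markers (EPCAM, KRT8, KRT18, KRT19 and CDH1) were counted, and their summed level ranged from 6425 to 6881 CPM, counts scaled to a common library size, in untreated, 3224 to 3397 in AX-0085, 2575 to 2882 in IFN-γ and 3607 to 3661 in combinatorially treated libraries. All 5 fell with IFN-γ, beside 36% of all tested genes (edgeR adjusted p under 0.05). The sum hides members that moved apart. With AX-0085 alone, KRT8 and KRT18 fell (log2 differences -0.91 and -1.30), EPCAM and CDH1 rose (1.33 and 0.52) and KRT19 did not pass. By the same test, 26.6% of all tested genes fell and 26.7% rose. With both agents, CDH1 was above untreated cells (1.17). The part of these markers in the synthetase results was not tested. The summed leukocyte markers did not exceed 0.159 CPM in any library, with CD3E and CD68 at 0, and the summed endothelial markers did not exceed 0.529. The summed fibroblast markers lay between 3.06 and 10.8 CPM. In these bulk libraries, fewer cells of a state and less RNA per cell cannot be told apart. Nothing in the labels says that the duplicates came from separate cultures, so the p-values measure only the spread between these libraries, which may be technical.

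WARS1 stood apart from every other synthetase gene. Its gene lies on the minus strand at chr14:100333790-100376805 (GRCh38). The level of WARS1 was 37.8 and 40.5 CPM in the untreated duplicates, 48.5 and 50.6 in the AX-0085 duplicates, 1027 and 1035 in the IFN-γ duplicates and 155 and 163 in those given both agents. All 4 groups were separate, with the IFN-γ libraries highest and the untreated libraries lowest. The library size in CPM was corrected by TMM, a factor for the makeup of each library. IFN-γ raised WARS1 26.4-fold over untreated cells, a log2 difference of 4.72 ± 0.07 (SE, n = 2 per group; edgeR quasi-likelihood test with Benjamini-Hochberg adjustment, adjusted p = 2.5e-14). The next largest change of a synthetase gene in that comparison was that of GARS1, with a log2 difference of 1.89. About 10.6% of the WARS1 exon bases are overlapped by a gene on the other strand, and the sources used here do not state whether reads were counted by strand.

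AX-0085 added to IFN-γ-treated cells lowered WARS1 6.48-fold relative to IFN-γ alone (log2 difference -2.70 ± 0.06, edgeR adjusted p = 1.6e-12). The level with both agents nevertheless remained 4.07-fold above untreated cells (edgeR adjusted p = 9.2e-11). On the log2 scale, the fall from IFN-γ alone was 57.1% of the IFN-γ rise, a share that includes the effect of AX-0085 without IFN-γ. Without IFN-γ, AX-0085 raised WARS1 1.27-fold (log2 difference 0.34 ± 0.06, edgeR adjusted p = 0.0006). The interaction term, which is the IFN-γ effect in the presence of AX-0085 minus the IFN-γ effect in its absence, was -3.04 ± 0.09 for WARS1 (edgeR adjusted p = 1.2e-10). The comparisons of IFN-γ with untreated cells and of both agents with IFN-γ share the IFN-γ libraries, so their opposite signs are not independent of each other.

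The rank of WARS1 among the 19 cytosolic genes changed with treatment. Per kilobase of transcript, WARS1 was at 14.8 ± 0.73 CPM per kb in untreated cells (SD, n = 2), the lowest of the 19. FARSB, which encodes the beta subunit of the phenylalanyl enzyme, was the next lowest at 22.5 ± 0.74. With IFN-γ, WARS1 reached 390.7 ± 2.0 CPM per kb and ranked 3, behind AARS1 at 433 ± 31 and GARS1 at 399.8 ± 32, and its distance to GARS1 was smaller than their spread. With both agents WARS1 was at 60.3 ± 2.1 and ranked 13. The share of WARS1 in the summed CPM of the 19 cytosolic genes was taken without correction for transcript length. It was 0.907% and 0.952% in untreated libraries, 11.4% and 12.3% in IFN-γ libraries and 2.43% and 2.55% with both agents.

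The mitochondrial partner WARS2 did not follow WARS1. WARS2 lies on chromosome 1 (chr1:119031216-119140654, minus strand) and charges the mitochondrial tryptophan tRNA. Its levels were 10.5 and 10.7 CPM in untreated, 20.8 and 19.4 in AX-0085, 10.5 and 12.4 in IFN-γ and 14.7 and 14.1 in combinatorially treated libraries. The AX-0085 libraries were the highest, and the IFN-γ libraries overlapped the untreated ones. With IFN-γ the log2 difference of WARS2 was 0.12 ± 0.11 (edgeR adjusted p = 0.32). AX-0085 alone raised WARS2 1.90-fold (log2 difference 0.93 ± 0.10, edgeR adjusted p = 4.4e-06), and with both agents it was 1.36-fold above untreated cells (edgeR adjusted p = 0.0021). The interaction term was -0.60 ± 0.14 (edgeR adjusted p = 0.0032). The log2 ratio of WARS1 to WARS2, on CPM not corrected for transcript length, was 1.84 and 1.92 in untreated and 1.22 and 1.38 in AX-0085 libraries. It was 6.60 and 6.37 in IFN-γ and 3.39 and 3.53 in combinatorially treated libraries. AX-0085 and IFN-γ thus moved this ratio to opposite sides of the untreated libraries.

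**Figure D1:**
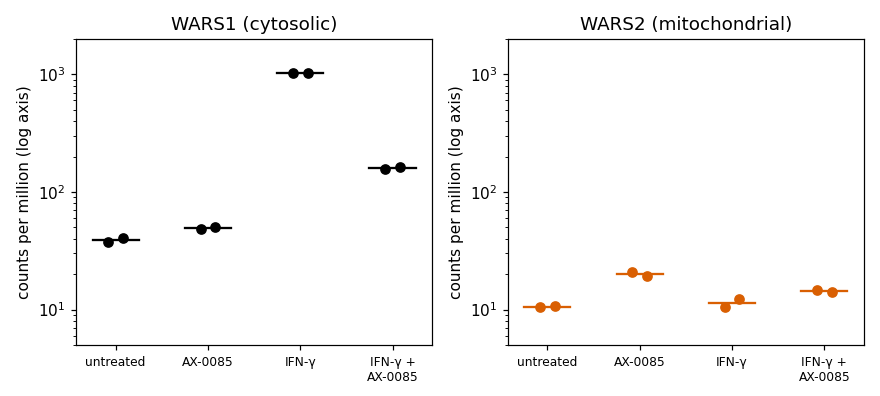
CPM (log axis) of WARS1 and WARS2 by group; each point is a library and each bar the mean of 2. WARS1 runs from 37.8 in an untreated library to 1035 with IFN-γ, while WARS2 stays between 10.5 and 20.8 and is highest with AX-0085.

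For reference beside these values, the 250 bases before the RefSeq start of WARS1 (GRCh38.p14, chr14:100376328-100376577, minus strand) are shown 5′ to 3′ because this gene carries the largest change. They hold no capitals because none of the searched motifs was found in them or in the 50 bases that follow.
WARS1: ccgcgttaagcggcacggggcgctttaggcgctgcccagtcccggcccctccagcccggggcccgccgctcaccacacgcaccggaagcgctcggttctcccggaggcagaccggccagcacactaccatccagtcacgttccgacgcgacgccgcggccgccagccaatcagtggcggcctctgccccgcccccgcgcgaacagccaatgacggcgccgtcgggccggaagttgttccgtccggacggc
The letters searched on both strands were TTCNNNGAA, the gamma-activated site; GAAANNGAA, part of the interferon-stimulated response element; and TGATGNAA, part of the amino acid response element bound by ATF4. Their absence says only that these letters are not in this window, the first listed for WARS1 and the only window searched for it.

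IFN-γ raised most of the other cytosolic synthetase genes. Of the 18 cytosolic genes without WARS1, 14 rose and 4 fell at an adjusted p under 0.05, where 32.1% of all tested genes rose and 36% fell (edgeR quasi-likelihood test, Benjamini-Hochberg adjustment). The median log2 difference of the 18 genes was 0.57, against -0.06 over all tested genes. By the stricter rule that also asks for a change over 2-fold, 4 rose and 1 fell, beside 10.3% and 17.2% of all tested genes. The 4 that rose over 2-fold were GARS1, SARS1, AARS1 and YARS1.

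GARS1 and SARS1 had the largest rises among these 18 genes. GARS1, the glycyl-tRNA synthetase (chr7:30580533-30634033, plus strand), was at 260 and 264 CPM in untreated, 434 and 434 in AX-0085, 1030 and 919 in IFN-γ and 578 and 592 in combinatorially treated libraries. No library of a group overlapped another group, and the order was untreated, AX-0085, both agents, IFN-γ. The IFN-γ rise of GARS1 was 3.72-fold (log2 difference 1.89 ± 0.07, edgeR adjusted p = 5.2e-11). SARS1, the seryl-tRNA synthetase (chr1:109213918-109238182, plus strand), was at 119 and 125 CPM in untreated, 269 and 270 in AX-0085, 432 and 396 in IFN-γ and 337 and 335 in combinatorially treated libraries, in the same order of groups. Its rise with IFN-γ was 3.40-fold (log2 difference 1.77 ± 0.06, edgeR adjusted p = 4.6e-11).

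QARS1 went the other way. QARS1, the glutaminyl-tRNA synthetase (chr3:49095932-49105130, minus strand), has no mitochondrial counterpart in human cells, where the mitochondrial glutamine tRNA is charged indirectly by the glutamyl enzyme EARS2 and an amidotransferase. Its levels were 154 and 157 CPM in untreated, 283 and 273 in AX-0085, 60.7 and 50.1 in IFN-γ and 230 and 227 in combinatorially treated libraries. The IFN-γ libraries were the lowest and the AX-0085 libraries the highest of the 4 groups. QARS1 fell 2.81-fold with IFN-γ (log2 difference -1.49 ± 0.08, edgeR adjusted p = 1.8e-09).

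VARS1, the valyl-tRNA synthetase, had the next largest fall among the 18 cytosolic genes. It was at 137 and 153 CPM in untreated, 102 and 87.7 in AX-0085, 87.5 and 89.4 in IFN-γ and 92 and 89.5 in combinatorially treated libraries. All 3 treated groups lay below the untreated libraries, and the AX-0085 libraries overlapped the other treated groups. The log2 difference with IFN-γ was -0.71 ± 0.08 (edgeR adjusted p = 2.2e-06). The phenylalanyl enzyme is built from the products of FARSA and FARSB, and its subunit genes moved apart with IFN-γ: FARSA fell (log2 difference -0.45) and FARSB rose (0.75). HARS1, the histidyl enzyme, was the remaining gene that fell (-0.17), and this call is lost under 8 of 15 alternative settings. HARS1 and its mitochondrial neighbor HARS2 are close in sequence and lie head to head, and how the counting divided reads between them is not stated.

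**Figure D2:**
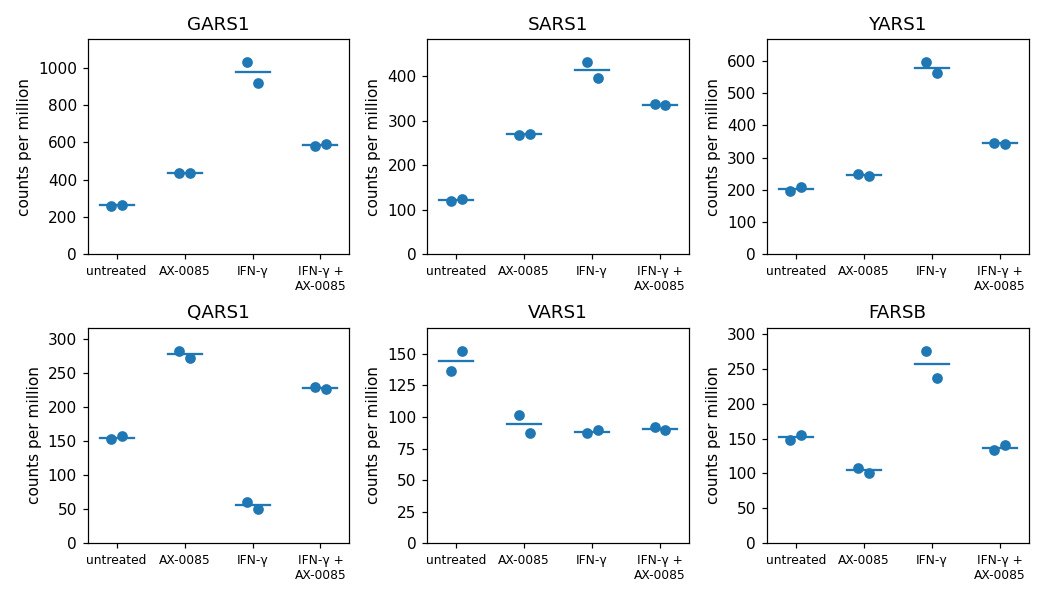
CPM of 6 cytosolic synthetase genes by group, on linear axes that start at 0; each point is a library and each bar the mean of 2. GARS1, SARS1 and YARS1 are highest with IFN-γ, QARS1 is lowest there at 60.7 and 50.1, VARS1 is highest in untreated cells, and FARSB with both agents lies at 133 and 140.

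The mitochondrial genes showed no such rise. Of the 13 that were measured, 1 rose, 6 fell and 6 did not pass the test with IFN-γ, beside 32.1% of all tested genes that rose and 36% that fell, and the median log2 difference was -0.29 against -0.06 over all tested genes. The median was -0.14 without untreated replicate 2 and -0.14 without IFN-γ replicate 2. None changed over 2-fold. PARS2, the prolyl enzyme, was the gene that rose, from 7.35 and 8.27 CPM in untreated to 9.56 and 9.77 in IFN-γ libraries (log2 difference 0.31 ± 0.11, edgeR adjusted p = 0.023). This call is lost without untreated replicate 1 (log2 difference 0.27), without IFN-γ replicate 2 (0.34), with DESeq2 (0.36) and with library size alone (0.20). TARS2, the threonyl enzyme, fell from 51.2 and 56.5 to 28 and 29.1 CPM (log2 difference -0.91 ± 0.08, edgeR adjusted p = 2.6e-07). FARS2, the phenylalanyl enzyme of mitochondria, fell from 17.7 and 17.2 to 12 and 11.1 CPM (log2 difference -0.60 ± 0.09, edgeR adjusted p = 4.9e-05). The IFN-γ libraries of TARS2 and FARS2 did not overlap the untreated ones. CARS2, IARS2, RARS2 and YARS2 also fell, with log2 differences between -0.46 and -0.29, and the YARS2 call is lost without untreated replicate 1, without IFN-γ replicate 2 and with DESeq2. The mitochondrial genes were expressed at lower levels, from 0.978 to 92.6 CPM per kb in untreated cells with a median of 14.8, against 14.8 to 161 with a median of 64.4 for the 19 cytosolic genes.

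**Figure D3:**
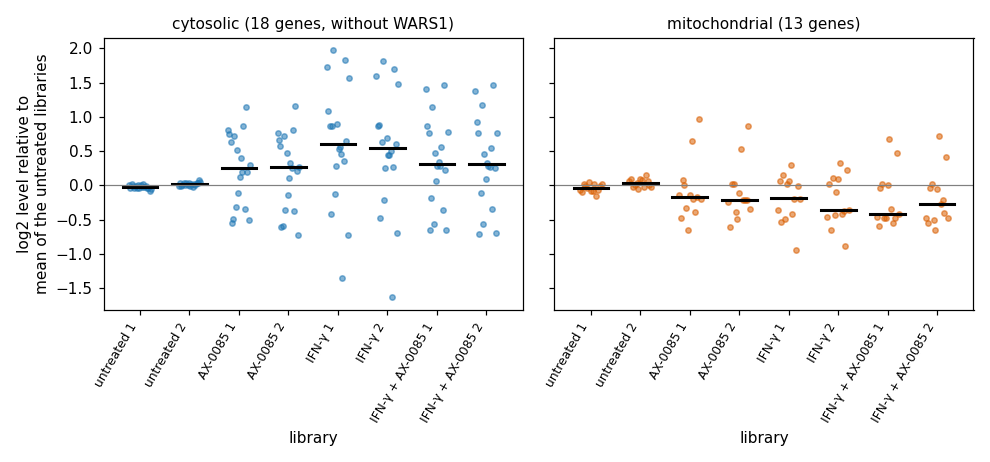
Log2 level of each synthetase gene in each library relative to its mean in the untreated libraries; points are genes (18 cytosolic without WARS1, 13 mitochondrial) and black bars are the class median of that library. The cytosolic median is 0.61 and 0.55 in the IFN-γ libraries, and the mitochondrial median is -0.19 and -0.35.

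The class medians differed in sign in each treated library. Relative to the untreated mean, the cytosolic median was 0.25 and 0.27 on the log2 scale in AX-0085 libraries, 0.61 and 0.55 in IFN-γ libraries and 0.32 and 0.31 in combinatorially treated libraries. The mitochondrial median was -0.16 and -0.21, then -0.19 and -0.35, then -0.41 and -0.26 in the same groups. Summed over the 18 cytosolic genes without WARS1, the level was 4124 and 4210 CPM in untreated and 7976 and 7395 in IFN-γ libraries. Summed over the 13 mitochondrial genes it was 715 and 749.7 in untreated and 597 and 595 in IFN-γ libraries.

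Pairing enzymes for the same amino acid set the classes side by side within each amino acid. A cytosolic and a mitochondrial gene were both measured for 12 pairs, of which the FARSA and FARSB pairs share FARS2. The ratios use CPM without correction for transcript length. The log2 ratio of cytosolic to mitochondrial level was higher in both IFN-γ libraries than in both untreated libraries in 11 of 12 pairs. As a background on single genes, the IFN-γ libraries lay wholly above the untreated ones for 37.8% and wholly below for 43.3% of all tested genes. The exception was HARS1 to HARS2, at 1.00 and 1.07 in untreated and 0.76 and 0.72 in IFN-γ libraries. The SARS1 to SARS2 ratio went from 6.07 and 5.85 to 7.98 and 8.02, although SARS2 had only 31 to 51 counts per library and 48.2% of its exon bases are shared with another gene. YARS1 to YARS2 went from 2.61 and 2.76 to 4.45 and 4.52, and TARS1 to TARS2 from 2.69 and 2.63 to 4.25 and 4.14. With AX-0085 alone the ratio was above the untreated libraries in 7 pairs and below them in 5, and with both agents it was above in 8 and below in 3. On single genes, the AX-0085 libraries lay wholly above the untreated ones for 38.8% and wholly below for 37.4% of all tested genes, and those with both agents for 40.0% and 39.1%. These 3 counts share the untreated libraries.

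**Figure D4:**
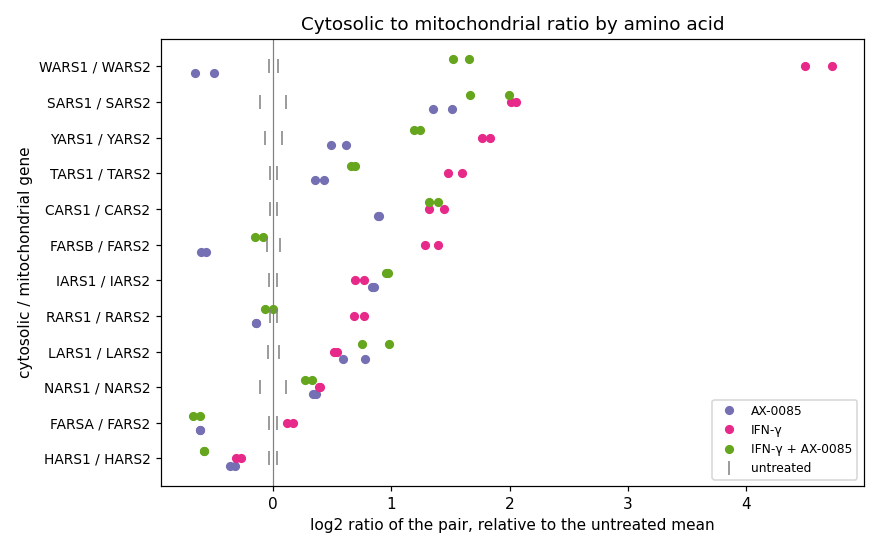
Log2 ratio of cytosolic to mitochondrial synthetase level for 12 pairs, relative to the mean of the untreated libraries; each point is a library and grey ticks are the untreated libraries. The IFN-γ points lie above the untreated ticks in 11 pairs and below them for HARS1 to HARS2, and the AX-0085 points lie on both sides.

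AX-0085 alone raised some cytosolic genes and lowered others. Of the 18 genes, 11 rose, 5 fell and 2 did not pass the test, beside 26.7% and 26.6% of all tested genes that rose and fell, and the median log2 difference was 0.26 against 0.01 over all tested genes. SARS1 rose 2.22-fold (log2 difference 1.15 ± 0.06, edgeR adjusted p = 9.1e-09) and was the single cytosolic gene to change over 2-fold, beside 6.41% of all tested genes that rose and 5.62% that fell by this rule. QARS1 rose 1.79-fold (0.84 ± 0.07, edgeR adjusted p = 7.3e-07), where IFN-γ lowered it; both comparisons use the untreated libraries. VARS1 fell (-0.61 ± 0.07, edgeR adjusted p = 1.7e-05), and so did FARSA, from 89.2 and 90.5 CPM in untreated to 61.7 and 58.9 in AX-0085 libraries (-0.58 ± 0.06, edgeR adjusted p = 6.1e-06). FARSB fell as well, with a log2 difference of -0.54, so that with AX-0085 both subunit genes of the phenylalanyl enzyme were lower.

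Among the 13 mitochondrial genes, AX-0085 alone raised 2 and lowered 6, beside 26.7% and 26.6% of all tested genes, with a median log2 difference of -0.19. Of the genes lowered, TARS2 was close to the threshold (log2 difference -0.19, edgeR adjusted p = 0.049). Its call is lost with DESeq2, with library size alone and with a replicate block. The RARS2 call (log2 difference -0.21) is lost with DESeq2. The number lowered was 3 without AX-0085 replicate 2. The genes that rose were WARS2, described above, and PARS2, which reached 12.3 and 11.2 CPM (log2 difference 0.59 ± 0.11, edgeR adjusted p = 0.0004). LARS2, the leucyl enzyme, fell from 35.9 and 33.4 to 22.1 and 24.8 CPM (-0.57 ± 0.09, edgeR adjusted p = 0.00017). EARS2, the glutamyl enzyme, fell from 79.3 and 90.4 to 61.2 and 55.7 CPM (-0.54 ± 0.08, edgeR adjusted p = 5.7e-05). Neither LARS2 nor EARS2 passed the test with IFN-γ, where their log2 differences were -0.04 and 0.04.

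Added to IFN-γ-treated cells, AX-0085 lowered most of the cytosolic genes. Of the 18 genes, 13 fell, 2 rose and 3 did not pass the test, beside 32.8% and 33.7% of all tested genes that fell and rose. Their median log2 difference was -0.25, against 0.03 over all tested genes. With library size alone in place of TMM, which raises the median of all tested genes by 0.12, 8 of the 18 fell and 2 rose. No cytosolic gene apart from WARS1 fell over 2-fold, while 8.28% of all tested genes did, and QARS1 was the single member to rise over 2-fold, beside 16.5% of all tested genes. The comparison shares its IFN-γ libraries with that of IFN-γ against untreated cells.

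QARS1 rose 4.14-fold on addition of AX-0085 to IFN-γ (log2 difference 2.05 ± 0.08, edgeR adjusted p = 1.4e-10). With both agents it was 1.47-fold above untreated cells (edgeR adjusted p = 2.4e-05). IARS1, the isoleucyl enzyme, was the other gene that rose, from 609 and 594 to 694 and 687 CPM (0.20 ± 0.06, edgeR adjusted p = 0.0073). This call is lost without replicate 1 (log2 difference 0.19) and without replicate 2 (0.20) of the combination. FARSB fell from 276 and 237 to 133 and 140 CPM (-0.91 ± 0.07, edgeR adjusted p = 1.8e-07). YARS1, the tyrosyl enzyme, was at 195 and 209 CPM in untreated, 248 and 244 in AX-0085, 597 and 561 in IFN-γ and 346 and 342 in combinatorially treated libraries. The fall of YARS1 on addition of AX-0085 had a log2 difference of -0.75 ± 0.06 (edgeR adjusted p = 1.3e-07). The log2 difference was -0.74 for GARS1, -0.27 for AARS1 and -0.30 for SARS1. Besides WARS1, 11 cytosolic genes rose with IFN-γ and fell on addition of AX-0085. The share of all tested genes with both calls was not counted, so this number is not shown to be particular to the synthetases. Taken singly, 32.1% of all tested genes rose with IFN-γ and 32.8% fell on addition of AX-0085. Both comparisons use the same IFN-γ libraries. On the log2 scale, the fall on addition of AX-0085 was expressed as a share of the IFN-γ rise. This share ran from 16.4% for AARS1 and 17% for SARS1 to 120% for FARSB and 210% for RARS1. Between these lay 38.9% for GARS1, 49.4% for YARS1, 61.9% for TARS1 and 89.6% for KARS1. The 57.1% of WARS1 lay within this range, below 4 of the 11 genes. The share includes the effect of AX-0085 without IFN-γ, so it does not measure how far AX-0085 reduced the IFN-γ effect. Without IFN-γ the AX-0085 log2 difference was 1.15 for SARS1, 0.79 for AARS1, 0.34 for WARS1, -0.54 for FARSB and -0.36 for RARS1. For SARS1, the IFN-γ log2 difference was 1.77 without AX-0085 and 0.32 in its presence. A share over 100% means that the level with both agents was below that of untreated cells. The falls of AARS1, LARS1, MARS1 and NARS1 among these genes did not pass the test with library size alone.

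When AX-0085 followed IFN-γ, 4 of the 13 mitochondrial genes rose, 2 fell and 7 did not pass the test, beside 33.7% and 32.8% of all tested genes, with a median log2 difference of -0.05. The share that rose was near that of all tested genes. FARS2 rose from 12 and 11.1 to 17 and 17.1 CPM (0.56 ± 0.09, edgeR adjusted p = 9.6e-05), next to 17.7 and 17.2 in untreated libraries. TARS2 rose from 28 and 29.1 to 38.8 and 40.6 CPM (0.47 ± 0.08, edgeR adjusted p = 0.00016), still below the untreated libraries. EARS2 fell from 88.4 and 85.5 to 56.4 and 57.7 (-0.61 ± 0.08, edgeR adjusted p = 1.2e-05) and LARS2 from 35.2 and 32.5 to 25 and 22.1 CPM (-0.52 ± 0.09, edgeR adjusted p = 0.00024). For EARS2 and LARS2 the AX-0085 and the combinatorially treated libraries overlapped, and both groups lay below the libraries without AX-0085. The sign of the class median depends on the scaling: with library size alone it was 0.07, where the median of all tested genes was 0.16.

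**Figure D5:**
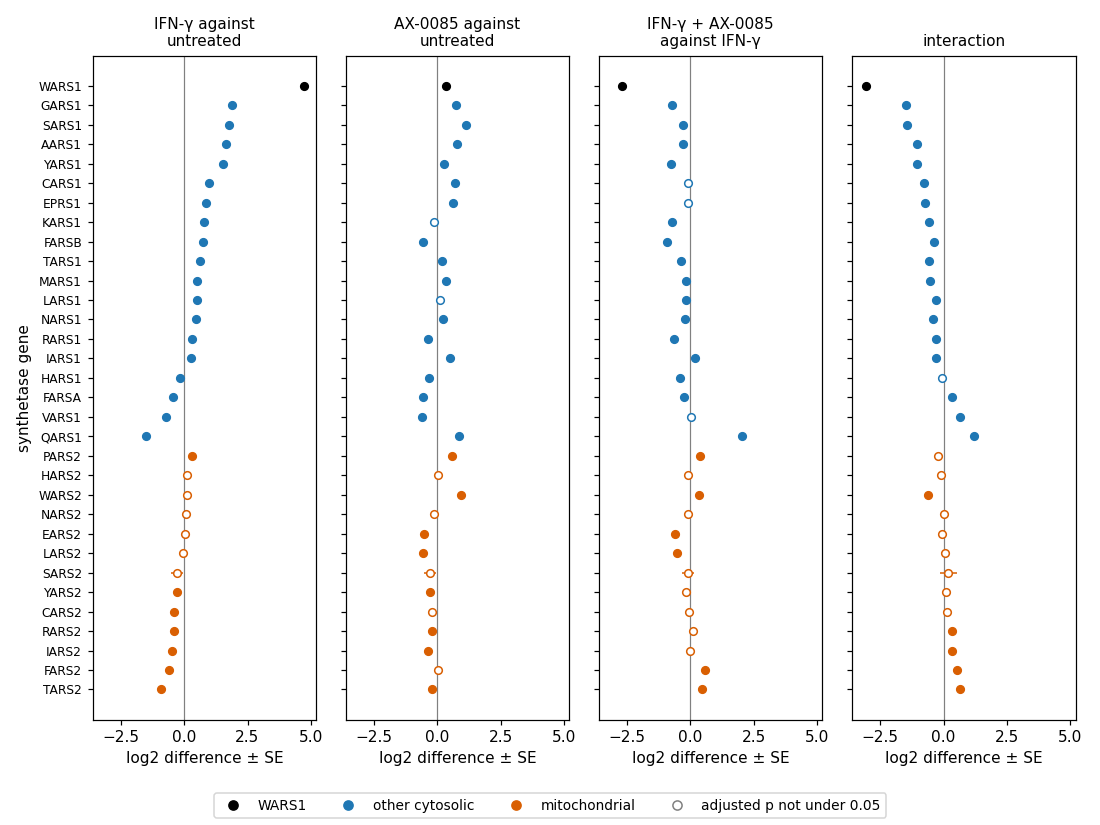
Log2 differences ± SE of the 32 tested synthetase genes in 3 comparisons and for the interaction term, ordered within each class by the IFN-γ effect; filled points passed an adjusted p under 0.05 and open points did not. WARS1 is at 4.72 with IFN-γ and -2.70 when AX-0085 is added, and QARS1 is at -1.49 and 2.05 in the same comparisons.

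The interaction term was negative for most cytosolic genes. It passed the test as negative in 14 of 18 and as positive in 3, beside 23.6% and 26.7% of all tested genes, and the median was -0.49 against 0.05 over all tested genes. In these 14 genes the IFN-γ effect was lower, on the log2 scale, in the presence of AX-0085 than in its absence. The size of the term exceeded 2-fold as negative in 4 genes and as positive in 1, beside 6.46% and 12.1% of all tested genes. The interaction was -1.46 ± 0.09 for GARS1 (edgeR adjusted p = 5.7e-08) and -1.45 ± 0.08 for SARS1 (edgeR adjusted p = 3.0e-08). It was 1.21 ± 0.10 for QARS1 (edgeR adjusted p = 9.8e-07) and 0.65 ± 0.11 for VARS1 (edgeR adjusted p = 0.00025), the cytosolic genes that IFN-γ lowered most. Among the 13 mitochondrial genes it passed as positive in 4 and as negative in 1, with a median of 0.11, or 0.01 without IFN-γ replicate 2. TARS2 had an interaction of 0.66 ± 0.11 (edgeR adjusted p = 0.00025) and FARS2 of 0.51 ± 0.12 (edgeR adjusted p = 0.0034), and WARS2 was the gene with a negative term.

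The effect of IFN-γ in the presence of AX-0085 was read by comparing the combination with AX-0085 alone. WARS1 was 3.21-fold higher with both agents than with AX-0085 alone (log2 difference 1.68 ± 0.06, edgeR adjusted p = 1.8e-09). Of the other 18 cytosolic genes, 8 rose, 2 fell and 8 did not pass the test, beside 17.3% and 17.4% of all tested genes, and no gene of the 18 changed over 2-fold, beside 1.79% and 1.73% of all tested genes. The largest rises were those of AARS1, the alanyl enzyme, and YARS1, with log2 differences of 0.61 and 0.48. None of the 13 mitochondrial genes rose and 3 fell. The cytosolic and the mitochondrial count were both lower when either AX-0085 library or either library of the combination was left out. They were not lower when a library of the groups not compared was left out. The number of cytosolic genes that rose was 5 without AX-0085 replicate 2. Against untreated cells, the combination raised 12 and lowered 4 of the 18 cytosolic genes, beside 28.1% and 28.8% of all tested genes, and raised 2 and lowered 7 of the 13 mitochondrial genes. Over 2-fold it raised 3 cytosolic genes, SARS1, AARS1 and GARS1, and lowered 0, beside 7.51% and 7.23% of all tested genes. The class medians in that comparison were 0.31 and -0.39.

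Members of the multisynthetase complex and the other cytosolic genes were counted side by side. The 7 members of the complex on the list were EPRS1, IARS1, KARS1, LARS1, MARS1, QARS1 and RARS1; EPRS1 charges both glutamate and proline tRNAs. With IFN-γ, 6 of these 7 rose and 1 fell, with a median log2 difference of 0.49, and of the other 11 cytosolic genes 8 rose and 3 fell, with a median of 0.75, beside 32.1% and 36% of all tested genes. With AX-0085 on top of IFN-γ, 4 of the 7 fell and 2 rose, and 9 of the other 11 fell and none rose, with medians of -0.18 and -0.30, beside 32.8% of all tested genes that fell and 33.7% that rose. Of the scaffold genes of the complex, AIMP1 rose with IFN-γ (log2 difference 0.73) and AIMP2 fell (-0.45), and EEF1E1 was listed at 0.

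Genes that work beside the synthetases gave mixed counts on short lists, where 32.1% of all tested genes rose and 36% fell with IFN-γ, and 26.7% rose with AX-0085. EEF1A1, EEF1B2 and EEF1D belong to elongation factor 1, which carries charged tRNA to the ribosome, and EEF1G had too few counts to test. With IFN-γ, 1 of 3 rose (EEF1B2, log2 difference 0.59) and 1 fell (EEF1D, -0.31), and with AX-0085 all 3 rose, led by EEF1A1 (0.91) and EEF1B2 (0.36). Of 5 mitochondrial partner genes, which make the amidotransferase, the formyl group on the initiator tRNA and an elongation factor, 3 rose and 2 fell with IFN-γ, with the largest changes in QRSL1 (0.63) and MTFMT (-0.44). TUFM and TSFM, mitochondrial elongation factors, were listed at 0. Of 3 synthetase-like and tRNA-editing genes, 2 rose with IFN-γ, SEPSECS (1.40) and DTD1 (0.34), and AARSD1 and DTD2 were listed at 0.

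The tryptophan genes and the amino acid response genes were counted beside WARS1. IDO1, the interferon-inducible enzyme that degrades tryptophan, was listed at 0 in all 8 libraries, and IDO2 had at most 2 counts. The 0 of IDO1 was treated as not measured, so it does not show whether IFN-γ induced IDO1. Of 5 tested genes of tryptophan breakdown, uptake and sensing, 4 rose and 1 fell with IFN-γ, beside 32.1% and 36% of all tested genes, and the largest changes were those of TDO2, at 31 and 20 counts in untreated and 10 and 5 in IFN-γ libraries (log2 difference -1.42, a call lost without untreated replicate 1, at -1.19, and without IFN-γ replicate 2, at -0.76), and SLC3A2, a subunit of the amino acid transporter (1.21). Of 11 tested amino acid response genes, 11 rose with IFN-γ, with a median log2 difference of 2.24, and 9 rose with AX-0085, with a median of 1.01, where 26.7% of all tested genes rose with AX-0085. Their largest IFN-γ changes were those of SESN2 (4.78), a sensor of leucine, and ATF3 (4.69), a transcription factor of the stress response. With AX-0085 on top of IFN-γ, 9 of the 11 fell and 2 rose, beside 32.8% and 33.7% of all tested genes, with a median of -0.67. The interaction passed as negative in all 11, beside 23.6% of all tested genes, with a median of -1.41. ATF4 itself rose with IFN-γ (log2 difference 1.21) and with AX-0085 (1.06). ASNS, asparagine synthetase, was listed at 0.

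The promoter windows, which run from 250 bases before to 50 bases after each RefSeq start (GRCh38.p14), were available for 30 of the 35 genes. No window was given for AARS2, LARS1, VARS1, VARS2 and YARS1. Only the first listed window of each gene was used, so other starts of a gene were not searched. The letters TGATGNAA of the amino acid response element, on either strand, were present in 6 of 15 cytosolic windows without WARS1 and in 1 of 14 mitochondrial windows, beside 3.67% of 27305 windows of all genes. The motifs were chosen with the expression values known, and a match describes the sequence only. The 7 matches are shown 5′ to 3′ on the strand of the gene, with the letters that match TGATGNAA in capitals. Of these, 6 belong to cytosolic genes that rose with IFN-γ. Of all 18 cytosolic genes 14 rose, but this set includes genes that had no window to search: LARS1 and YARS1, which rose, and VARS1, which fell. A TTCNNNGAA match in the CARS1 stretch is left in small letters.
AARS1: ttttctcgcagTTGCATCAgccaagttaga
CARS1: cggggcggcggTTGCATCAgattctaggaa
IARS1: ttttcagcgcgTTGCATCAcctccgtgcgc
MARS1: gccggttccggTTGCATCAgcgagggattc
NARS1: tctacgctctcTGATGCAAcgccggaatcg
TARS1: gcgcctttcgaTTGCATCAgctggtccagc
YARS2: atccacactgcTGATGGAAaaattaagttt
The stretches lie at chr16:70289675-70289704 (AARS1, minus strand), chr11:3057407-3057436 (CARS1, minus), chr9:92293692-92293721 (IARS1, minus), chr12:57488053-57488082 (MARS1, plus), chr18:57621804-57621833 (NARS1, minus), chr5:33440956-33440985 (TARS1, plus) and chr12:32756076-32756105 (YARS2, minus). The 6 cytosolic matches hold the same 8 letters, on one strand or the other, and that of YARS2 differs from them. GARS1 and SARS1, which had the largest rises with IFN-γ after WARS1, held no such match in their windows. The GARS1 window held GAAACAGAA, a match to GAAANNGAA. The gamma-activated letters TTCNNNGAA were in 2 of 15 cytosolic and 2 of 14 mitochondrial windows, beside 7.88% of all windows, and GAAANNGAA was in 2 and 1, beside 8.29%.

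The 3 synthetase genes at 0 are not shown to be silent, and neither are the other genes listed at 0, IDO1 and ASNS among them. A limit of 3 counts corresponds to 0.100 to 0.145 CPM across the 8 libraries, for counting error only. AARS2 (chr6:44298731-44313347, minus strand) shares 4.48% of its exon bases with other genes, MARS2 (chr2:197705369-197708395, plus strand) shares 0% and VARS2 (chr6:30914205-30926459, plus strand) shares 63%. Whether reads that overlap more than a single gene were counted is not stated in the sources used here. Among the genes with counts, SARS2 had the fewest, with 1.28 to 2.08 CPM, and passed no test.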

How the data were processed

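RNA from A549 cells was sequenced as paired-end stranded mRNA libraries. Per the submitters' processing notes, the authors used bcl2fastq 2.20, Trim Galore 0.6.7, STAR 2.7.9a on GRCh38 and featureCounts, and they deposited raw read counts per gene; the annotation release, strand setting and handling of shared reads are not given in the sources used here. Counts were tested with edgeR 4.0.16 (R 4.3.3): TMM factors, filterByExpr, a 4-group quasi-likelihood model of all 8 libraries and Benjamini-Hochberg adjustment over 15066 genes, with 0.05 as threshold. Symbols and positions came from GENCODE 44, transcript lengths from its MANE transcripts, and promoter sequences from RefSeq. The script was tested on simulated data. Members and lists were chosen with earlier results of these data known. Named in full were WARS1, WARS2 and, per class and for IFN-γ, AX-0085, the addition of AX-0085 to IFN-γ and the interaction, the 2 largest rises and falls that passed; AARS1, further genes and the multisynthetase split were added after values were seen. Alternatives were RLE factors, library size alone, DESeq2 1.42.0, other count filters, only the groups compared, a replicate block, each library left out, and a 2-fold rule. The chi-square of duplicates per degree of freedom was 8.55 to 27.7, so no duplicates were the same library. With 2 libraries per group, an exact permutation test cannot go below p = 0.333.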

Additional observations from a re-analysis of the deposited data

Results flagged for a closer look

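The IFN-γ effect differed between cells with and without AX-0085 by the test of the interaction term itself (edgeR, Benjamini-Hochberg adjusted p under 0.05) for WARS1 and for 7 other members, which had the largest positive and negative terms that passed in each class, at most 2 of each sign. The log2 interaction was -3.04 for WARS1, -1.46 for GARS1 and -1.45 for SARS1, where the IFN-γ rise was smaller with AX-0085. It was 1.21 for QARS1 and 0.65 for VARS1, which IFN-γ lowered without AX-0085 (log2 differences -1.49 and -0.71) and which had log2 differences of -0.28 and -0.06 with it. Among mitochondrial genes it was 0.66 for TARS2, 0.51 for FARS2 and -0.60 for WARS2. Groups of 2 libraries are too small for a search for outlying samples.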

How the results depend on the processing

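WARS1 kept its direction and an adjusted p under 0.05 (edgeR or DESeq2) in all 6 comparisons under each normalization, count filter, block and left-out library, and with only the groups compared in the 5 comparisons other than the interaction, which needs all 4 groups. Its 1.27-fold rise with AX-0085 alone does not pass a 2-fold rule. The WARS1 log2 differences were 4.60 to 4.77 for IFN-γ against untreated, -2.73 to -2.57 for both agents against IFN-γ and -3.09 to -2.92 for the interaction. SARS2, with 31 to 51 counts per library, is limited by depth. No call of a synthetase gene changed sign under any alternative. The replicate numbers were not used to pair the samples. Correlations of same-numbered deviations lay between -0.109 and 0.087, which shows no strong shared deviation but cannot exclude that same-numbered libraries were handled together. A replicate block gave 18 cytosolic and 7 mitochondrial genes past the test for IFN-γ, 16 and 7 for AX-0085, 15 and 6 for both agents against IFN-γ, 9 and 3 against AX-0085, 16 and 9 against untreated, and 17 and 5 for the interaction.

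Library size alone shifted the median of all tested genes by -0.12 for IFN-γ, 0.12 for both agents against IFN-γ and 0.12 for the interaction, where the share of calls that were higher went from 53.1% to 63.6%. The cytosolic medians were then 0.45, -0.13 and -0.37 and the mitochondrial medians -0.40, 0.072 and 0.23, the second of which changed sign; relative to all genes they were 0.62, -0.29 and -0.54, and -0.22, -0.08 and 0.06. The mitochondrial median for both agents against IFN-γ was -0.089 with RLE factors, -0.089 with DESeq2 and 0.0036 with at least 10 counts in every library; the cause was not tested. Asking for a change over 2-fold as well left 5 cytosolic genes for IFN-γ, 1 for AX-0085, 1 for both agents against IFN-γ, 0 against AX-0085, 3 against untreated and 5 for the interaction, and 0 mitochondrial genes in each.

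With each library left out in turn, the cytosolic median ranged from 0.56 to 0.66 for IFN-γ, 0.11 to 0.13 for both agents against AX-0085 and 0.31 to 0.35 against untreated. The mitochondrial median ranged from -0.35 to -0.14 for IFN-γ, -0.12 to -0.054 for both agents against AX-0085, -0.096 to -0.030 against IFN-γ, -0.41 to -0.23 against untreated and 0.015 to 0.17 for the interaction. The number of cytosolic genes past the test for both agents against AX-0085 ranged from 5 to 11, and of mitochondrial genes from 1 to 3, and for AX-0085 alone from 5 to 9. A group left with a single library was assumed to vary like the others.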
